A study of Mus musculus with 14 samples.

Results

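The chromatin of 75 Sox, Fox and T-box transcription factor genes was described in mouse bone marrow progenitors with and without UTX. The genes were taken by name from the RefSeq table of 21887 placed protein-coding genes: symbols made of Sox, Tbx, or Fox with 1 letter, followed by digits. The rule set 1 further forkhead gene aside. It found 19 Sox, 43 Fox and 13 Tbx genes, and the rule itself uses no measured value. The members and the classes below were nevertheless chosen with earlier results of these data known. All groups were progenitors that remained after lineage depletion of C57BL/6 bone marrow, either UTX WT or UTX KO (UTX is the protein of Kdm6a). The labels give no age, no sex and no driver of the deletion, and whether a library came from 1 animal or a pool is not given in the sources used here. H3K27me3 and H3K27ac were each precipitated in 2 WT and 2 KO libraries, UTX itself in 2 WT libraries, and IgG in 1 library whose label names it as control of a BCOR precipitation. Whether libraries of a group came from separate animals is not given either, so each p-value below measures the spread between libraries, which may be technical.

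The 3 families are DNA-binding factors named after their binding domains: the HMG box of Sox proteins, the forkhead domain of Fox proteins and the T-box. Most members set up an organ or germ layer in the embryo, and Polycomb repressive complex 2 marks such genes with H3K27me3 in tissues that do not use them. A smaller set works in blood: Sox4 in progenitors and early lymphocytes, Sox6 in red cell maturation, Foxo3 in stem cell maintenance, Foxp1 in B cell development and Foxm1 in dividing cells. UTX removes methyl groups from H3K27 and also sits in a COMPASS complex at enhancers, where H3K27ac marks activity.

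The members were sorted by this background into 13 blood-expressed genes (Sox4, Sox6, Foxj2, Foxj3, Foxk1, Foxk2, Foxm1, Foxn2, Foxn3, Foxo3, Foxo4, Foxp1 and Foxp4), 3 genes of mature lymphocytes (Sox13, Foxp3 and Tbx21) and 59 genes of other tissues. The last class is named for where its members are known to act, and RNA was not measured in these data. All values count reads in islands, the enriched stretches called by SICER, over the gene span plus 2 kb on either side. They are given as rpm, which scales each library to 1000000 island reads, and levels of different genes are compared only as rpm per kb of that window.

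The H3K27ac libraries held 9330823 to 15256696 island reads, the H3K27me3 libraries 2347442 to 2743508, the UTX libraries 816567 and 1834418, and the IgG library 154029. Progenitor markers (Kit, Cd34, Spi1, Runx1 and 4 more) held H3K27ac in both WT libraries at 8 of 8 genes. Of 6 stromal markers 5 had no H3K27ac island in WT, and of 5 neural markers 3 had none. Kdm6a, the targeted gene, held H3K27ac at 197.2 and 102.4 rpm in WT and 181.1 and 185.1 rpm in KO. Island lists do not show a deleted exon, so this gene did not check the genotype labels.

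7 promoters are shown for the genes on which the results turn, from RefSeq (GRCm38.p6, the assembly of mm10), each 300 bases long from 250 before to 50 after the start. Capitals mark CG dinucleotides, the sites of CpG methylation, which cluster in CpG islands, and each line reads 5′ to 3′ on the gene's own strand. Sox2 is printed as a gene under H3K27me3 alone, Foxd2 and Sox4 as genes under both marks, Foxo3 and Foxp1 as genes under H3K27ac, and Sox6 with its 5′ start and an internal start.
Sox2, chr3:34649745-34650044, plus strand: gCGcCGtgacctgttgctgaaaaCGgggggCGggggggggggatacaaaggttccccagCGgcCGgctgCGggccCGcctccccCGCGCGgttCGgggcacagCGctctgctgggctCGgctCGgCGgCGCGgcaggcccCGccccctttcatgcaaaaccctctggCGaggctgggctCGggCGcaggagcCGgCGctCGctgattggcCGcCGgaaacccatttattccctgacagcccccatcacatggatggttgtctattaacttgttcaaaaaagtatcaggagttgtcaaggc
Foxd2, chr4:114908849-114909148, minus strand: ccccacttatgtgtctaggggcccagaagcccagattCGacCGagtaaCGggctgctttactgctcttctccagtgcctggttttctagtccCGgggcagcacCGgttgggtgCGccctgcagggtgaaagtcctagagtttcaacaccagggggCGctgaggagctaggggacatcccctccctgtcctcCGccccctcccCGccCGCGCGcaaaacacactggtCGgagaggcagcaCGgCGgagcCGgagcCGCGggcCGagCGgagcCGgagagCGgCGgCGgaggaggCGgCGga
Sox4, chr13:28953650-28953949, minus strand: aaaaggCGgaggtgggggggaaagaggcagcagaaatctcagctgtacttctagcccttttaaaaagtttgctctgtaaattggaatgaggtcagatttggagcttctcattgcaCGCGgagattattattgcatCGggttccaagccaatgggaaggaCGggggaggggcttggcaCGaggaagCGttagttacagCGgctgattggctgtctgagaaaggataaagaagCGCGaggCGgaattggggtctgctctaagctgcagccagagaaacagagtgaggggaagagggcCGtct
Foxo3, chr10:42276646-42276945, minus strand: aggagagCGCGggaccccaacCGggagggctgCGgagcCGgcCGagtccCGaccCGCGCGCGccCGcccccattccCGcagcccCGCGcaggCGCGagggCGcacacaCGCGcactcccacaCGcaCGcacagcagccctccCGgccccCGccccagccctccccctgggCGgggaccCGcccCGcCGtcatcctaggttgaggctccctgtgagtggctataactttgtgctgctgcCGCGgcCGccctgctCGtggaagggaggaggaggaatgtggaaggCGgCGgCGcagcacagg
Foxp1, chr6:99520944-99521243, minus strand: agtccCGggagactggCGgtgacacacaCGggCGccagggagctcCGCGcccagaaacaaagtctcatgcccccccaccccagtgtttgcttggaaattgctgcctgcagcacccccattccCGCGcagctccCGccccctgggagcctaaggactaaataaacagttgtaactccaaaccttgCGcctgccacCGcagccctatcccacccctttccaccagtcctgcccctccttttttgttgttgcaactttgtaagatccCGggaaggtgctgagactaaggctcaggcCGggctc
Sox6 5′ start, chr7:116038695-116038994, minus strand: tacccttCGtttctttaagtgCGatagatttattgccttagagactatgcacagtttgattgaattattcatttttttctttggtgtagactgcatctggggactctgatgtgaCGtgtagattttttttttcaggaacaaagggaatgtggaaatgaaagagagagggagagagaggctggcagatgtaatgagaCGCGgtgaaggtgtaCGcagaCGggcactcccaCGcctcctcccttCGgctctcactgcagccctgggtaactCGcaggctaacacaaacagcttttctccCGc
Sox6 internal start, chr7:115846091-115846390, minus strand: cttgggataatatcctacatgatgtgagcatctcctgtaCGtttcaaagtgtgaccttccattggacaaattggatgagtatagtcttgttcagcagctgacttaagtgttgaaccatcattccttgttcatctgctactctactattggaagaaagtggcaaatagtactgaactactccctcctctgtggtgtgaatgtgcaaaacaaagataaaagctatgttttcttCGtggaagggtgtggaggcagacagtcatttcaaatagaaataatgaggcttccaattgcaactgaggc
Foxo3 held 35 CG dinucleotides, Sox2 and Foxd2 27 and 26, Foxp1 13, Sox4 12 and the Sox6 5′ start 11. The internal Sox6 start held 2, with an observed to expected CpG ratio of 0.16 against 0.67 at the 5′ start.

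The table lists 62 promoters for 49 of the members. Their median CpG ratio was 0.657, against 0.567 over 21263 promoters of 17492 genes, and 58.1% of them exceeded a ratio of 0.6, against 47.6% overall. The letters GATAA, searched on both strands, stood in 17.7% of members' promoters and 22.5% of all. CCGGAAG, searched likewise and not overlapping it, stood in 1.61% and 11.6%. The internal Sox6 start held 2 GATAA matches, and the Sox4 promoter 1. Islands were counted within 2 kb of each start, a wider window than the promoter, and a gene with several starts counts once for each. An H3K27me3 island of both WT libraries met 64.5% of members' start windows (20.0% of all). An H3K27ac island met 25.8% (53.4% of all) and UTX 19.4% (34.4% of all).

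H3K27me3 lay over most of the members in WT progenitors. It was found in both WT libraries at 58 of 75 members (77.3%), against 27.2% of all protein-coding genes. The classes differed: 52 of 59 other-tissue genes (88.1%) carried it, 4 of 13 blood-expressed genes (Sox4, Sox6, Foxp4 and Foxo4), and Sox13 and Tbx21 among the lymphoid genes. H3K27ac ran the other way, at 13 of 13 blood-expressed genes, 1 of 3 lymphoid genes (Sox13) and 10 of 59 other-tissue genes. That made 24 of 75 members (32.0%), against 59.0% of all genes. These class counts are a description: the classes were set with earlier results known, and none was tested against another, since genes of a class share libraries and are not replicates of them. Neither these counts nor the UTX counts below were adjusted for window length, and a longer window has more room to meet an island.

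At many developmental members the H3K27me3 domain was wider than the gene. In both WT libraries it covered more than 50% of the window at 40 of 59 other-tissue genes and at 0 of 13 blood-expressed genes, against 6.0% of all genes. The same number, 40, was covered that far in both KO libraries. These counts depend on the length of the window, which was not adjusted for. Sox6, with a gene of 569.9 kb and an H3K27me3 region of 27.8 kb, could not reach 50%, while the window of Foxb2 was 5.5 kb. Per kb, the highest level was at Tbx2, a repressor of limb and heart development, with 19.7 and 32.8 rpm per kb in WT replicates 1 and 2. Tbx1, the pharyngeal arch factor, had 17.6 and 30.0 rpm per kb, and Foxl2, a factor of the ovary, 18.6 and 27.9. These pairs overlap one another, so their order is not set beyond the spread of the libraries. Foxc2 (vessels and mesenchyme) and Foxl1 (gut mesenchyme) followed with 17.44 and 26.99 rpm per kb each, and they are neighbours under a single H3K27me3 region of 60.4 kb at chr8:121111401-121171800. In all 5 genes WT replicate 2 was the higher library.

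**Figure D1:**
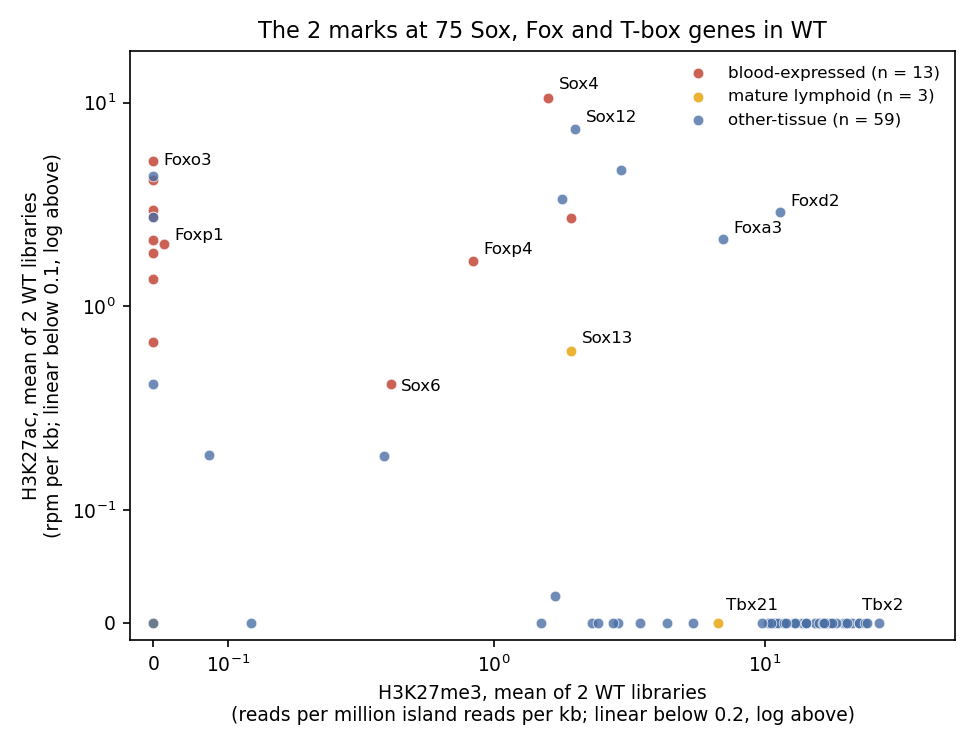
H3K27ac (vertical) against H3K27me3 (horizontal) at the 75 genes, each point the mean of 2 WT libraries in rpm per kb of window, on axes that are linear near 0 and logarithmic above, coloured by class. Most other-tissue genes lie along the bottom right with H3K27me3 and no H3K27ac, blood-expressed genes lie at the upper left, and Sox4 and Foxd2 are among the few with both. Sox12 also has both values above 0, but its H3K27me3 comes from WT replicate 2 alone.

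Both marks met 10 members in both WT libraries, or 13.3%, which is near the 12.9% of all genes: Sox4, Sox6, Foxp4, Foxo4, Sox13, Sox5, Foxd2, Foxa3, Foxh1 and Tbx10. Sox4 had the highest H3K27ac per kb of all members (11.4 and 9.76 rpm per kb in WT) together with a low H3K27me3 level (1.74 and 1.44). The islands of the 2 marks overlapped over 1800 and 1200 bp there. Foxd2, a factor of the kidney and paraxial mesoderm, had 9.24 and 13.4 rpm per kb of H3K27me3 and 3.04 and 2.75 of H3K27ac, with 200 and 400 bp shared. Sox6 carried H3K27me3 in WT around its 5′ end and most of its H3K27ac islands farther into the gene, with 1200 and 1600 bp shared. Whether both marks sat in the same cells cannot be told from a mixture of progenitors.

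Several other-tissue genes with H3K27ac lie beside other genes whose spans enter the window, so their islands cannot be assigned to them alone. Foxh1 shares its window with Kifc2 and Ppp1r16a, Sox15 with Fxr2 and Mpdu1, Tbx6 with Ypel3 and Ppp4c, Tbx10 with Nudt8, and Foxa3 with Sympk. Among the members called below, Sox13 shares its window with Etnk2, Foxk1 with Ap5z1 and Foxj3 with Frg2f1. The same limit holds for further blood-expressed genes. Foxm1 shares its window with Rhno1 and Tex52, Foxj2 with C3ar1, Foxn3 with Gm51999 and Foxo4 with Gm614. Sox12, a SoxC factor closely related to Sox4, has no such neighbour and ranked next after Sox4 in H3K27ac (7.46 rpm per kb, mean of 2). Foxo3 followed with 5.19, Foxh1 with 4.69 and Tbx6 with 4.37. Only 3 members carried neither mark in both WT libraries. Foxp3, the factor of regulatory T cells, and Tbx19, a pituitary factor, had no island in any of these 8 libraries, and Foxi1 had H3K27me3 in 1 WT and 1 KO library.

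UTX occupied 19 of 75 members (25.3%), against 37.7% of all genes, where occupied means that the window held islands in each UTX library and none in IgG. It was found at 11 of 13 blood-expressed genes, 0 of 3 lymphoid genes and 8 of 59 other-tissue genes. The 2 blood-expressed genes left out were Foxo4, with an island in replicate 2 alone, and Sox6. Sox6 had 2 and 12 UTX islands but also 1 IgG island, at chr7:115800601-115802200, away from the UTX islands. No Sox6 island of one UTX library met an island of the other. Among members with H3K27ac in WT 15 of 24 (62.5%) were occupied, which is near the 62.6% of all genes with H3K27ac. By the mean of 2 libraries Sox4 had the highest UTX level, 19.1 and 20.9 rpm per kb, while Foxd2 was higher in replicate 1 (23.9).

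The 8 occupied other-tissue genes were Sox12, Sox18, Foxd1, Foxd2, Foxd4, Foxa3, Tbx2 and Tbx10. Foxd2 had 23.9 and 12.9 rpm per kb, Sox12 16.1 and 11.4, Foxd1 (a kidney stroma factor) 12.7 and 3.97, and Sox18 (an endothelial factor) 5.49 and 11.5. Sox18, Foxd1, Foxd4 and Tbx2 carried H3K27me3 with no H3K27ac in WT. They made up 4 of the 48 members marked by H3K27me3 alone (8.33%, against 4.85% of all such genes). At Tbx2 each UTX library had 3 islands inside the 28.2 kb H3K27me3 region. The UTX islands of Foxd2 (chr4:114907001-114909600 in replicate 1, chr4:114907401-114909800 in replicate 2) covered the promoter printed above.

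H3K27ac could be tested at 24 members, those with an island in all 4 libraries (56.4% of all genes have one), with edgeR's quasi-likelihood test and p-values adjusted over 12350 genes. It rose in KO at 5: Foxp1, Foxp4, Foxk1, Foxj3 and Sox13. It fell at 4: Sox6, Sox5, Sox12 and Foxo3. Across all genes tested 8.60% rose and 10.0% fell, and 18.6% changed in either direction, against 9 of 24 members, a difference that was not tested. The median log2 fold change was -0.04 over the 24 members and 0.01 over all genes. Blood-expressed genes gave 4 rises and 2 falls among 13, and other-tissue genes 2 falls among 10. KO and WT libraries did not overlap at 16 of the 24, with KO above WT at 9 and below at 7, against 62.5% of all genes tested. In the mixture of progenitors measured here, fewer cells carrying a mark and less mark per cell cannot be told apart.

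The calls depended on the length covered by islands. Dividing by covered kb left 0 of 12350 genes called with limma, 1357 of them at an unadjusted p under 0.05, and 0 with edgeR, 1364 of them at that p. With limma on rpm, without that division, 2612 genes were called and all 9 members among them. Without WT replicate 2, the deepest library, edgeR called 0 of 12418 genes, 3437 of them at an unadjusted p under 0.05, while DESeq2 on all 4 libraries called 2739 genes (22.2%).

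**Figure D2:**
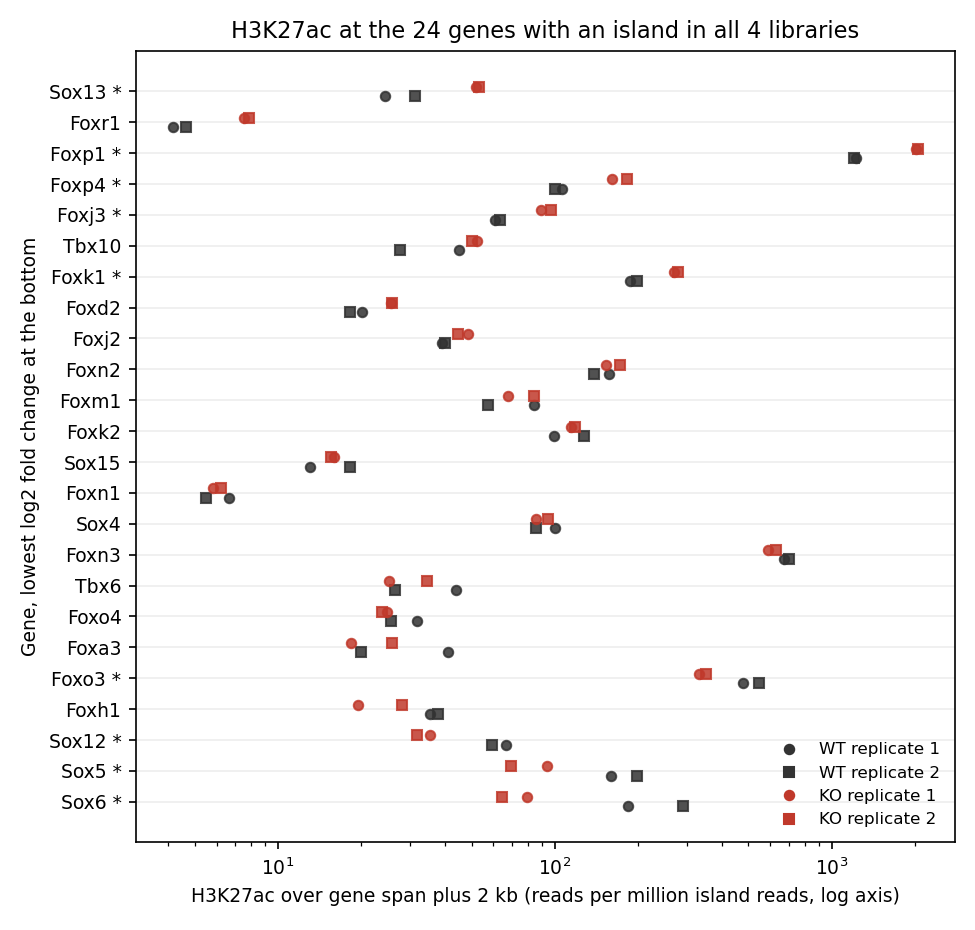
H3K27ac over the gene span plus 2 kb (horizontal, rpm, logarithmic) at the 24 members tested, 1 point per library, WT in black and KO in red, ordered by log2 fold change, with a star where the edgeR adjusted p was under 0.05. The KO points lie to the left of WT at Sox6, Sox5, Sox12 and Foxo3 and to the right at Foxp1, Foxp4 and Sox13.

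Sox6 had the largest fall among the 24 members tested. It is a SoxD factor with no activation domain of its own, known in red cells for silencing embryonic globin. Over the gene (chr7:115470872-116040776, mm10) H3K27ac was 183.7 and 291.3 rpm in WT and 79.6 and 64.3 rpm in KO. Both KO libraries lay far below both WT libraries. The means were 237.5 ± 76.1 and 71.9 ± 10.8 rpm (SD, n = 2 each), a log2 fold change of -1.78 (SE 0.279, edgeR adjusted p = 0.0139). Without WT replicate 2 the change was -1.35 and its adjusted p 0.0607. Per covered kb it was -0.61 (adjusted p = 0.312), and the islands covered 6.24% and 11.4% of the window in WT and 4.71% and 3.38% in KO.

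The Sox6 regions that passed lay in the interior of the gene, and their change was not tested against that near the 5′ end. The region that holds the internal start printed above, chr7:115839801-115849200, went from 46.4 and 63.0 rpm to 6.03 and 10.5 rpm (log2 fold change -2.87, SE 0.296, edgeR adjusted p = 0.000991, adjusted over all H3K27ac regions). A UTX island of replicate 2 met this region, and none of replicate 1. Another region toward the 3′ end, chr7:115542401-115553000, fell from 42.1 and 50.8 to 19.8 and 19.1 rpm (-1.38, SE 0.174, adjusted p = 0.00198). Regions at chr7:115884401-115898600 and chr7:115949201-115954800 had islands in both WT libraries and in neither KO library. The region near the 5′ end, chr7:116031001-116033600, had 12.8 and 9.37 rpm in WT and 7.25 and 8.18 in KO and did not pass (-0.62, adjusted p = 0.117). The 5′ end itself lay under H3K27me3, which had 190.3 and 300.5 rpm in WT and 276.9 and 337.9 in KO over chr7:116019601-116047400 and did not pass (0.22, SE 0.212, adjusted p = 0.838).

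**Figure D3:**
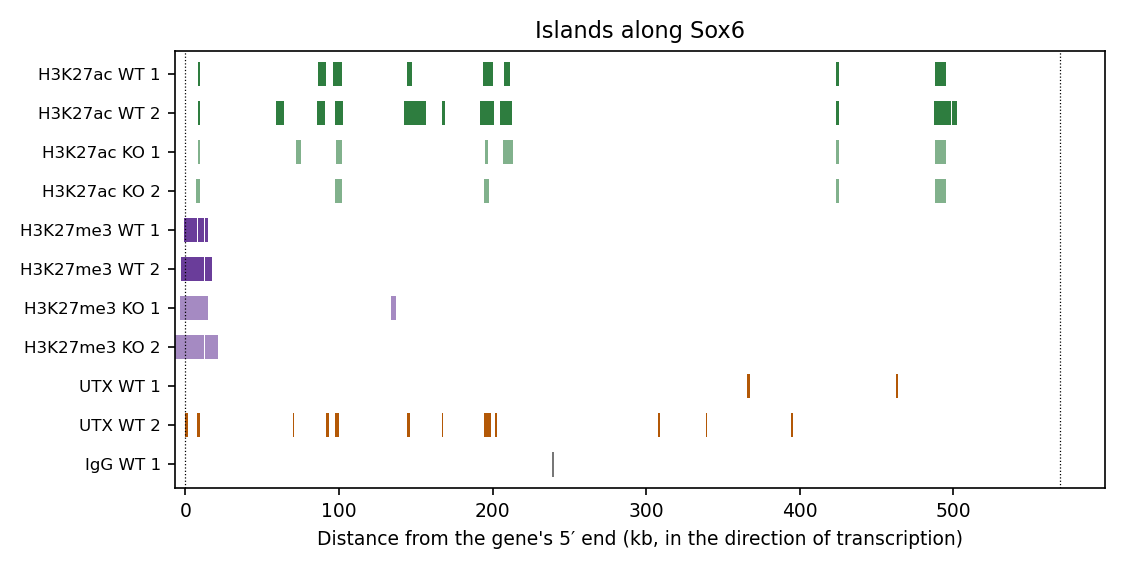
Islands along Sox6, with the distance from its 5′ end in kb on the horizontal axis, 1 row per library and dotted lines at both ends of the gene. In the 5′ part of the gene body several H3K27ac islands of WT (dark green) are absent or shorter in KO (light green). Others are not, and KO replicate 1 has an island there that neither WT library has. H3K27me3 (purple) sits over the 5′ end in all 4 libraries.

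Erythroid markers moved with Sox6. H3K27ac summed over Gata1, Klf1, Epor, Tfrc and Hbb-bt was 361.4 and 366.5 rpm in WT and 193.0 and 204.8 in KO, with 4 of 5 lower by the same test. Their part in the result at Sox6 was not tested.

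Sox5, the closest relative of Sox6, is a factor of cartilage and nerve cells. Its H3K27ac was 160.0 and 197.7 rpm in WT and 94.0 and 69.4 rpm in KO, with no overlap (178.9 ± 26.7 to 81.7 ± 17.4 rpm, SD, n = 2, log2 fold change -1.18, SE 0.217, edgeR adjusted p = 0.0211). The islands were small and scattered over a gene of 953.9 kb. Of 20 H3K27ac regions 9 were found in both WT and neither KO library, 1 in the reverse way, and the 4 found in all libraries did not pass. Per covered kb the value turned to 0.04, and without WT replicates 1 and 2 in turn the adjusted p was 0.0591 and 0.113. Sox13, the third SoxD gene and a factor of gamma-delta T cells, rose from 24.4 and 31.3 to 51.7 and 53.4 rpm (log2 fold change 0.85, SE 0.187, edgeR adjusted p = 0.0333). The rise lay in chr1:133412801-133419800 (15.3 and 13.8 to 34.8 and 32.9 rpm, 1.11, adjusted p = 0.00464), where no UTX island was found. Leaving out any 1 library ended the call over the gene (adjusted p 0.0606 to 0.088). T and NK cell markers summed to 80.5 and 59.0 rpm of H3K27ac in WT and 197.5 and 100.0 in KO. Of those 8 genes Cd3e, Cd3g, Ncr1, Cd4 and Cd8a had no island in WT and 1 passed the test, upward. Their part at Sox13 was not tested.

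Among SoxC factors, which share a C-terminal activation domain, Sox12 fell and Sox4 did not pass. Sox12 had 66.8 and 59.0 rpm in WT and 35.3 and 31.7 in KO (62.9 ± 5.49 to 33.5 ± 2.57, SD, n = 2, log2 fold change -0.96, SE 0.142, edgeR adjusted p = 0.0121). Without WT replicate 2 its adjusted p was 0.0704, and over the gene span alone 0.0738. Sox4 had 99.97 and 85.7 rpm in WT and 85.3 and 94.2 in KO, values that overlap (log2 fold change -0.10, SE 0.125, adjusted p = 0.626). Sox11, the remaining SoxC gene and a neural factor, had H3K27me3 in all 4 libraries and no H3K27ac in WT.

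Foxp1, a repressor that B cell development needs, rose along much of its length. Over its 597.4 kb (chr6:98925342-99522746) H3K27ac was 1224 and 1203 rpm in WT and 2024 and 2042 rpm in KO. The libraries of each group lay close together and the groups far apart. The means were 1213 ± 14.8 and 2033 ± 12.9 rpm (SD, n = 2), a log2 fold change of 0.69 (SE 0.0714, edgeR adjusted p = 0.00547). The islands covered 40.1% and 46.0% of the window in WT and 73.7% and 66.5% in KO, and per covered kb the difference was 0.04 (adjusted p = 0.976). Without WT replicate 2 the adjusted p was 0.0529.

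The gain at Foxp1 was spread over the gene body. Of 25 regions 14 could be tested, of which 7 rose and 1 fell. A further 3 were found in both KO and neither WT library, and 1 the other way. No share over all H3K27ac regions is given beside these counts. When each gene was given its tested region with the most reads, 1396 of 12519 genes rose and 2143 fell. The region chr6:99289801-99347200 went from 93.6 and 79.5 to 232.5 and 241.2 rpm (log2 fold change 1.34, SE 0.0866, edgeR adjusted p = 0.00027). The region chr6:98979601-99037200 went from 85.3 and 86.2 to 190.7 and 226.9 rpm (1.17, SE 0.102, adjusted p = 0.000599). The region over the 5′ start printed above, chr6:99505801-99529600, had 190.6 and 162.4 rpm in WT and 219.3 and 243.5 in KO and did not pass (0.28, adjusted p = 0.0572). The share of its islands within 2 kb of that start was 79.4 and 61.3 rpm in WT and 41.8 and 42.4 in KO. That share assumes even coverage of islands that reached farther into the gene in KO, and it was not tested. UTX had 10 and 8 islands in the gene.

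**Figure D4:**
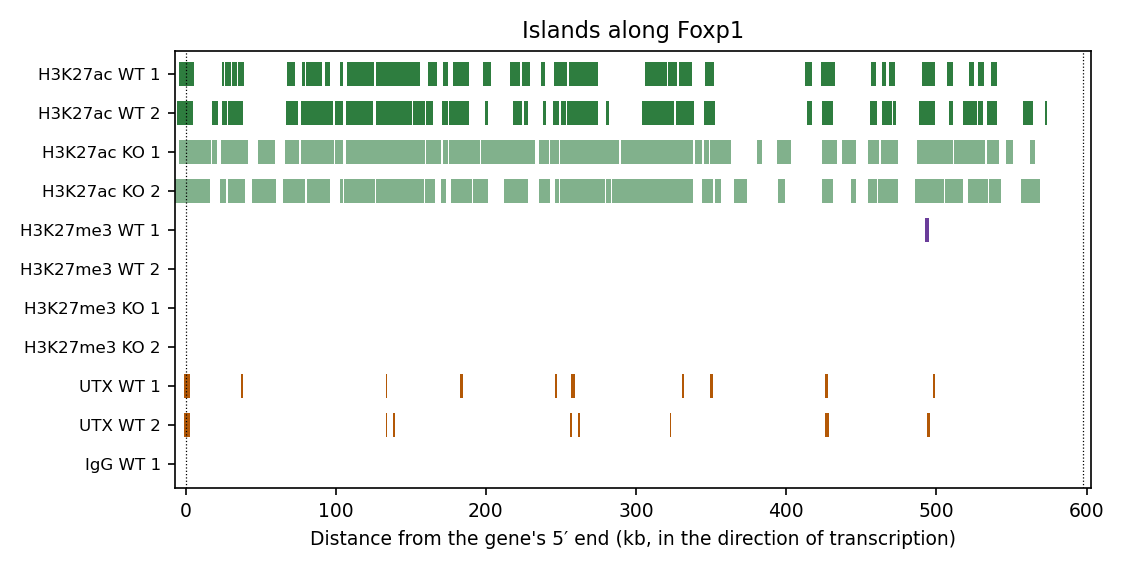
Islands along Foxp1, with the distance from its 5′ end in kb on the horizontal axis, 1 row per library and dotted lines at both ends of the gene. H3K27ac islands fill 40.1% and 46.0% of the window in WT (dark green) and 73.7% and 66.5% in KO (light green), and both UTX libraries have an island at the 5′ end.

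B cell markers moved with Foxp1. H3K27ac summed over Cd79a, Cd79b, Ebf1 and Pax5 was 102.6 and 94.0 rpm in WT and 319.0 and 441.9 in KO, with 3 of 4 higher by the test. Endothelial markers summed to 273.5 and 277.6 rpm in WT and 378.6 and 415.5 in KO, with 2 of 6 higher (Cdh5 and Pecam1). Most of that sum was Pecam1, with 240.3 and 245.7 rpm in WT and 344.1 and 371.0 in KO. Kdr had both KO libraries below WT without passing (-0.85, edgeR adjusted p = 0.0857). Tek had islands in both WT libraries and neither KO library, and Emcn and Tie1 had none. The part of either list in the Foxp1 result was not tested.

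Foxp4, a related repressor of lung and gut epithelium that T cells also use, had 106.0 and 100.3 rpm in WT and 161.2 and 181.7 in KO (log2 fold change 0.68, SE 0.114, edgeR adjusted p = 0.0163). The rise lay at chr17:47868401-47885800, away from the 5′ end, where 19.9 and 31.3 rpm became 60.6 and 73.1 (1.24, SE 0.23, adjusted p = 0.00881). At the 5′ end, chr17:47922001-47927600, the values were 49.0 and 35.7 rpm in WT and 50.7 and 50.4 in KO (0.15, adjusted p = 0.507). Per covered kb the value for the gene turned to -0.11, and of the 4 fits without 1 library 1 kept the call (adjusted p 0.0428 to 0.0846). The 2 other FoxP genes had no H3K27ac in WT: Foxp2, the speech-related neural factor, carried H3K27me3, and Foxp3 carried nothing.

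Foxo3, a target of growth factor signalling that guards stem cells from oxidative stress, fell. It had 479.2 and 547.5 rpm in WT and 332.2 and 350.4 in KO, with no overlap (513.3 ± 48.3 to 341.3 ± 12.9, SD, n = 2, log2 fold change -0.64, SE 0.121, edgeR adjusted p = 0.0223). Of its 2 regions the one of 66.2 kb over the 5′ end, chr10:42213401-42279600, fell (446.0 and 491.3 to 298.8 and 321.4 rpm, -0.71, adjusted p = 0.0021). The other, chr10:42183201-42208200, had 45.0 and 57.2 rpm in WT and 36.6 and 40.0 in KO and missed the threshold (-0.54, adjusted p = 0.0505). UTX replicate 1 had 2 islands and replicate 2 had 5 in the gene, with the most reads over the start printed above. Of the 4 fits without 1 library 1 kept the call (adjusted p 0.0391 to 0.0971). Among the 8 progenitor markers Kit fell (log2 fold change -0.46, edgeR adjusted p = 0.0491) and Spi1 rose (0.63, adjusted p = 0.0153). Cd34, Gata2 and Meis1 had both KO libraries below WT without passing (-0.51, -0.53 and -0.57, adjusted p = 0.0734, 0.0708 and 0.0669). Runx1 and Cebpa had both KO libraries above WT without passing (0.06 and 0.17, edgeR adjusted p = 0.708 and 0.513). The libraries overlapped at Mpo (-0.21, adjusted p = 0.486). The list summed to 2233 and 2307 rpm in WT and 2384 and 2182 in KO, and its part at Foxo3 was not tested. Foxo4, on chromosome X, had 31.8 and 25.5 rpm of H3K27ac in WT and 24.7 and 23.7 in KO and did not pass (-0.29, adjusted p = 0.287).

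Foxk1, a regulator of glycolysis and autophagy, rose from 186.9 and 197.4 to 268.7 and 279.6 rpm (log2 fold change 0.46, SE 0.107, edgeR adjusted p = 0.0393). Foxj3, a factor of muscle and germ cells that most tissues express, rose from 61.0 and 63.5 to 88.8 and 97.1 rpm (0.52, SE 0.129, adjusted p = 0.0445). Its 5′ region had 61.0 and 44.3 rpm in WT and 58.6 and 62.6 in KO (0.10, adjusted p = 0.66). An intragenic region at chr4:119606601-119617600 had 0 and 19.1 rpm in WT and 30.2 and 34.5 in KO. Leaving out any 1 library ended both calls (Foxk1 adjusted p 0.0801 to 0.142, Foxj3 0.107 to 0.175), the replicate block gave 0.0571 and 0.0549, and per covered kb Foxj3 turned to -0.47.

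The other blood-expressed genes did not pass over the whole gene. Foxn3, a checkpoint-associated repressor, had 675.1 and 702.5 rpm in WT and 586.6 and 628.0 in KO (log2 fold change -0.24, SE 0.0925, edgeR adjusted p = 0.14). Inside it the regions went both ways: of 11 tested 4 rose and 4 fell, and 2 more were found in both WT and neither KO library, with 0 in the reverse way. The region chr12:99279001-99300400 rose from 24.7 and 23.6 to 64.4 and 73.5 rpm (1.40, adjusted p = 0.000667), and chr12:99451801-99463000 fell from 32.8 and 37.0 to 9.42 and 8.27 rpm (-2.09, adjusted p = 0.000798). Its 5′ region, chr12:99554401-99567200, fell from 150.4 and 118.0 to 105.9 and 107.2 rpm (-0.44, adjusted p = 0.0247). Foxn2 had 147.8 ± 12.5 rpm in WT and 162.7 ± 12.9 in KO (SD, n = 2, adjusted p = 0.617). Foxm1, the mitotic gene activator, had 84.0 and 57.4 rpm in WT and 67.8 and 84.1 in KO (0.06, adjusted p = 0.859), which overlap. Foxk2 did not pass either (-0.02, adjusted p = 0.939). Foxj2 had 39.2 and 40.1 rpm in WT and 48.5 and 44.8 in KO, which do not overlap, and did not pass (0.18, adjusted p = 0.417).

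T-box genes had H3K27ac in all 4 libraries only at Tbx6 and Tbx10, both beside other genes, and neither passed (-0.28 and 0.47, edgeR adjusted p = 0.507 and 0.21). Tbx21, the T-bet gene of type 1 T cells and NK cells, had no H3K27ac island in WT and 10.7 and 6.38 rpm in KO. It was the only member gained (1 of 75, against 1.08% of all genes), and the islands of the 2 KO libraries lay at different places, chr11:97112801-97116600 and chr11:97103001-97104800. H3K27me3 stayed over Tbx21 in all 4 libraries (110.3 and 176.1 rpm in WT, 135.1 and 167.5 in KO). No member lost H3K27ac (0 of 75, against 1.42%).

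H3K27me3 had an island in all 4 libraries at 54 members (22.4% of all genes). Of these 54 tested members 0 passed, as 0 of 4910 genes did with edgeR (0.00%). At an unadjusted p under 0.05 there were 1 member (Sox4) and 414 genes, and DESeq2 called 0 members and 53 genes (1.08%). The members' log2 fold changes ran from -1.04 (Sox30, a testis factor) to 1.89 (Sox4), with a median of 0.0958 against -0.0025 over all genes. Among other-tissue genes the 9 tested Tbx genes ran from -0.09 to 0.27, the 26 Fox genes from -0.35 to 0.60 and the 14 Sox genes from -1.04 to 0.65. The interval of a single gene is wide: the SE at Tbx5, the member with the most reads (798.4 and 1013 rpm in WT, 936.2 and 1030 in KO), was 0.192.

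**Figure D5:**
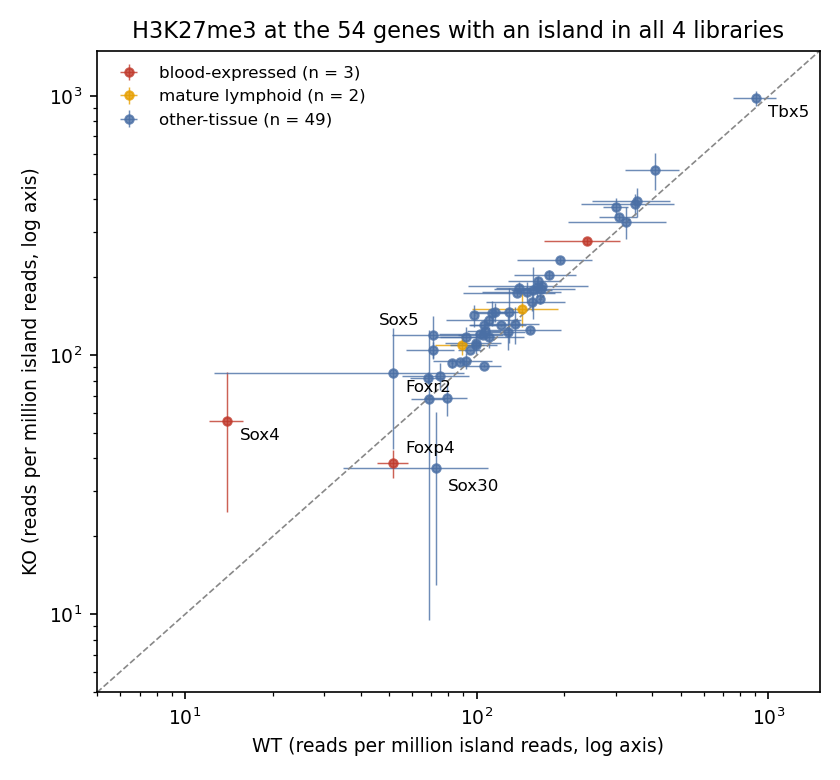
H3K27me3 in KO (vertical) against WT (horizontal) at the 54 members tested, in rpm on logarithmic axes, points as means and bars as SD of 2 libraries, with the dashed line at equality. Most points sit on or just above the line, and Sox4 is the farthest above it at 14.0 rpm in WT and 55.7 rpm in KO.

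Sox4 held 15.3 and 12.6 rpm of H3K27me3 in WT and 77.5 and 33.9 rpm in KO. Both KO libraries lay above both WT libraries but far from each other. The log2 fold change was 1.89 (SE 0.508, edgeR adjusted p = 0.428), which fails the correction. The region was chr13:28947801-28953400, inside the H3K27ac region of the gene, and UTX islands of both libraries met it. Sox2, the neural and pluripotency factor printed above, had 78.0 and 105.7 rpm in WT and 110.4 and 125.2 in KO (0.28, SE 0.243, adjusted p = 0.762). Foxd2 had 61.2 and 88.7 rpm in WT and 90.5 and 76.4 in KO (0.08, adjusted p = 0.956).

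KO libraries lay above both WT libraries at 21 of 54 members (24.5% of all genes tested) and below both at 2 (15.3%). WT replicate 1 was the lowest of the 4 libraries at 40 of the 54 members and at 2096 of 4910 genes. Without that library the members' median log2 fold change was -0.0032, and without WT replicate 2 it was 0.245.

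Few members changed between marked and unmarked. H3K27me3 was found at 60 and 60 members in WT and at 56 and 58 in KO (exact permutation test, two-sided, p = 0.333, the smallest that 2 libraries against 2 allow). Foxo4 was the only member lost (1 of 75, against 1.95% of all genes), with 23.0 and 17.9 rpm in WT and no island in KO, at chrX:101257401-101262800. Gm614 enters its window, so this loss cannot be assigned to Foxo4 alone. None was gained (0 of 75, against 0.429%). H3K27ac was found at 24 and 25 members in WT and at 26 and 27 in KO (exact permutation test, two-sided, p = 0.333).

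Other genes of these folds were read the same way. Among T-box genes outside the naming rule, Eomes, Tbr1 and T carried H3K27me3 in all 4 libraries and no H3K27ac in WT, and UTX occupied Tbr1. Mga, a T-box repressor partner of MAX, held H3K27ac (84.4 and 85.7 rpm in WT, 100.0 and 97.4 in KO) and did not pass (0.16, edgeR adjusted p = 0.403). Among HMG-box genes Tcf7l2, an effector of Wnt signalling, fell in H3K27ac from 121.3 and 132.4 to 68.6 and 78.3 rpm (-0.84, SE 0.14, edgeR adjusted p = 0.016). Lef1, its relative in early lymphocytes, had no H3K27ac island in WT and 42.3 and 46.0 rpm in KO. Tcf7 had islands in both WT libraries and 1 KO library, Tcf7l1 did not pass (0.91, adjusted p = 0.0964), and Sry had no island. Of the 3 genes tested in H3K27ac 0 rose and 1 fell, and of the 7 tested in H3K27me3 none passed.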

How the data were processed

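ChIP-seq of lineage-depleted progenitors was analysed in 11 of 14 samples, and 2 inputs and another IgG library were not used here. The deposited files give, for each library, islands with their raw counts of reads, called with SICER against mm10 per the submitters' processing notes. The aligner, SICER version and settings are not given in the sources used here. Reads outside islands were not used, so a gene with no island has no value.

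Each island's reads were assigned to a gene by the share of the island inside the gene span plus 2 kb, which assumes even coverage within an island, and rounded. Genes came from the RefSeq table of GRCm38.p6. Genes with an island in all 4 libraries of a mark entered edgeR 4.0.16 (TMM, glmQLFit, glmQLFTest, two-sided, Benjamini-Hochberg threshold 0.05) in R 4.3.3, fitted on WT and KO of that mark with no covariate. Log2 fold changes are KO over WT. Regions are islands of the 4 libraries merged where they overlap, tested the same way. Shares over all regions are not given, so counts of regions inside Sox5, Foxp1 and Foxn3 have no background of regions beside them. The code was tested on simulated data. Lost means an island in both WT and neither KO library, gained the reverse.

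Alternatives were DESeq2 1.42.0, no TMM, other filters and windows, whole islands, autosomes, reads per covered kb (limma 3.58.1, log2 with a pseudocount of 0.01, and edgeR with covered length as offset), limma on rpm, a replicate block, merged regions, stricter and equal-length island lists, and leaving out each library. Named genes were the blood-expressed and lymphoid members, all members called, lost or gained, the 5 highest per kb in each of H3K27me3, H3K27ac and UTX, UTX-occupied other-tissue members and related genes. Other names were chosen after their values were seen, to show a neighbour, subfamily member or range. The members, classes and lists were chosen with earlier results of these data known. The erythroid and B cell marker lists are given without 1 gene each, which is not reported here.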

Additional observations from a re-analysis of the deposited data

How the results depend on the processing

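Of the 9 members called in H3K27ac, 3 changed sign under reads per covered kb, without passing by limma or edgeR: Foxj3 (-0.47 and -0.69), Sox5 (0.0376 and 0.0357) and Foxp4 (-0.11 and -0.11). The 5 members called higher numbered 3 with islands required in 1 library (2 of the 5, and Tbx21), 3 of the 5 with the replicate block, 0 per covered kb by either tool, and 0 to 2 when a library was left out. The 4 called lower numbered 0 per covered kb by either tool and 0 to 4 when a library was left out, where the 4 included Foxh1 (-0.96, adjusted p = 0.041) in place of Foxo3. The replicate block kept all 4. With merged regions Sox5 (-0.36, adjusted p = 0.201) and Foxj3 (0.10, 0.66) lost their calls, and Foxa3 (-0.64, 0.037), Foxh1 (-0.74, 0.037) and Foxn3 (-0.44, 0.0247) were called lower. Foxa3 was also called with whole islands (-0.85, 0.026) and a 5 kb window (-0.70, 0.0227). Sympk enters its window, so these calls cannot be assigned to Foxa3 alone. No pairing was seen: the deviations of same-numbered WT and KO libraries correlated at 0.0035 for H3K27ac and -0.0025 for H3K27me3. H3K27ac gains (1) became 2 with equal list lengths or a 5 kb window, 0 within 2 kb of start sites and 1 to 2 when a library was left out. H3K27ac losses (0) became 1 over the gene span alone. H3K27me3 losses (1) became 2 with islands above the 25th percentile of reads per kb, 0 with a 5 kb window, 0 around start sites, and 1 to 3 when a library was left out. H3K27me3 gains (0) became 1 with equal list lengths. Around start sites, listed for 49 members, 34 rather than 58 carried H3K27me3 in both WT libraries and 13 rather than 24 H3K27ac. The causes were not tested beyond what each alternative's construction shows. In H3K27me3 all 968 alternative values of the 54 members stayed on their side of the threshold, while reads per covered kb moved the median of all genes to 0.23. Most of these settings called 0 genes among all tested, and DESeq2 called 53, so staying uncalled says little about the members. UTX-occupied members numbered 19, and 16 to 28 under the alternatives. Chosen after seeing the data were limma on rpm, edgeR per covered kb, and one that required the UTX islands of both libraries to meet each other, which gave 19, without Foxj2 and with Sox5.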
